A study of Saccharomyces cerevisiae with 6 samples.

Results

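The 33 genes that encode subunits of the budding yeast proteasome, and RPN4, the gene of the transcription factor that activates them, were followed in polyadenylated RNA of 1 engineered strain. Members were taken as a fixed list of 34 gene names, matched to systematic identifiers, out of the 7127 identifiers of the count table. The list holds 14 genes of the core particle, 19 genes of the regulatory particle and RPN4. The libraries were 3 of mCh- cells, collected 180 min after addition of 1 µM beta-estradiol, and 3 of mCh* cells, collected at 0 min, from 3 independent experiments. All cells were haploid MATa yeast of the S288c background, grown at 30 °C in rich medium (YPD). Both groups carried ade2 and the construct leu2::Cre-EBD78:LEU2, in which Cre recombinase is joined to a hormone-binding domain and whose promoter is not given in the sources used here. At the septin gene SHS1 both started from Shs1-loxPmCherry:Cln2(3'UTR)-NatNT2, followed by loxP-GFP, from which the recombinase excises mCherry once the hormone is added. Both also shared the chromosome tags trp1::TetO:TRP1 and lys4::LacO:hphNT1 and the fusions his3::LacR-GFP:HIS3 and TetR-mCherry. The labels give 1 µM beta-estradiol for both groups, with a time of 0 min for mCh* and 180 min for mCh- cells. Time in culture, time with the hormone and reporter allele all differ between the groups and cannot be told apart. The data come from populations of cells, in which fewer cells of a type and less RNA per cell cannot be told apart.

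The proteasome degrades proteins marked with ubiquitin. Its core particle is a barrel of alpha and beta rings, with the protease sites on the inside of the beta rings, and its regulatory particle binds, unfolds and deubiquitinates the substrate before it enters. Rpn4 binds the proteasome-associated control element in front of subunit genes, is itself degraded by the proteasome within minutes, and so forms a feedback loop that keeps subunit transcription matched to demand.

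The element to which Rpn4 binds, GGTGGCAAA, was searched on both strands of the 250 bases before and 50 bases after each start codon of genome build R64. An exact match stood in front of 27 of 33 subunit genes, 12 of the core and 15 of the regulatory particle, against 71 of 5989 genes (1.19%). The 71 include these 27. The element was chosen because it is known in front of subunit genes, so its excess there is not a new finding. The other 6 subunit genes held the element with 1 mismatch, and all 33 therefore had a match with at most 1 mismatch, against 7.56% of all genes. The 6 letters GGTGGC, which are part of the element and overlap it, were found in 30 of 33 subunit genes and in 6.93% of all genes. In a window of 500 bases before the start codon the exact element was again in 27 of 33 subunit genes, against 1.64% of all genes. A match is a description of these letters and not evidence of binding. The sites of 4 genes with an exact match are shown first, since they precede the catalytic subunit gene PRE2, the subunit gene with the highest fold change, RPT2, and PRE6 and RPN5, which share their site with a neighbouring gene. The 6 sites with a mismatch follow. Each is written 5′ to 3′ on the strand that carries the element, with the element in capitals.
PRE2 (chrXVI:732184-732212, plus strand): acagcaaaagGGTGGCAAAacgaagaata
RPT2 (chrIV:437906-437934, plus strand): gtttttctccGGTGGCAAAtgtctctttt
PRE6 (chrXV:255218-255246, minus strand): tttcccttccGGTGGCAAAagaatcttcg
RPN5 (chrIV:190776-190804, plus strand): ttgacttttcGGTGGCAAAatgcaaaggg
PRE5 (chrXIII:901552-901580, plus strand): cctattatagAGTGGCAAAattaaaaatt
PUP1 (chrXV:631891-631919, minus strand): aacccggccgAGTGGCAAAataccaaaaa
RPN8 (chrXV:817085-817113, minus strand): gggatacctcAGTGGCAAAtcgttactca
RPN10 (chrVIII:498968-498996, minus strand): tgtaaattccGGTGGCGAAaacccgcctg
RPN13 (chrXII:965656-965684, minus strand): ttattcgcgaGGTGGCGAAagctttgcta
SEM1 (chrIV:1202007-1202035, plus strand): tagtgctatgGGTGGCGAAcgtggtgggc

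With positions counted from 1 at the 5′ end of the element, and the base of the element written first, PRE5, PUP1 and RPN8 carried G1A and RPN10, RPN13 and SEM1 carried A7G. The substitutions were thus of 2 kinds only, each in 3 genes. Across the 33 sites the nearest base of the element lay 76 to 175 bases before the start codon, with a median of 112 bases. The element stood on the strand of the gene in 24 cases and on the opposite strand in 9.

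**Figure D1:**
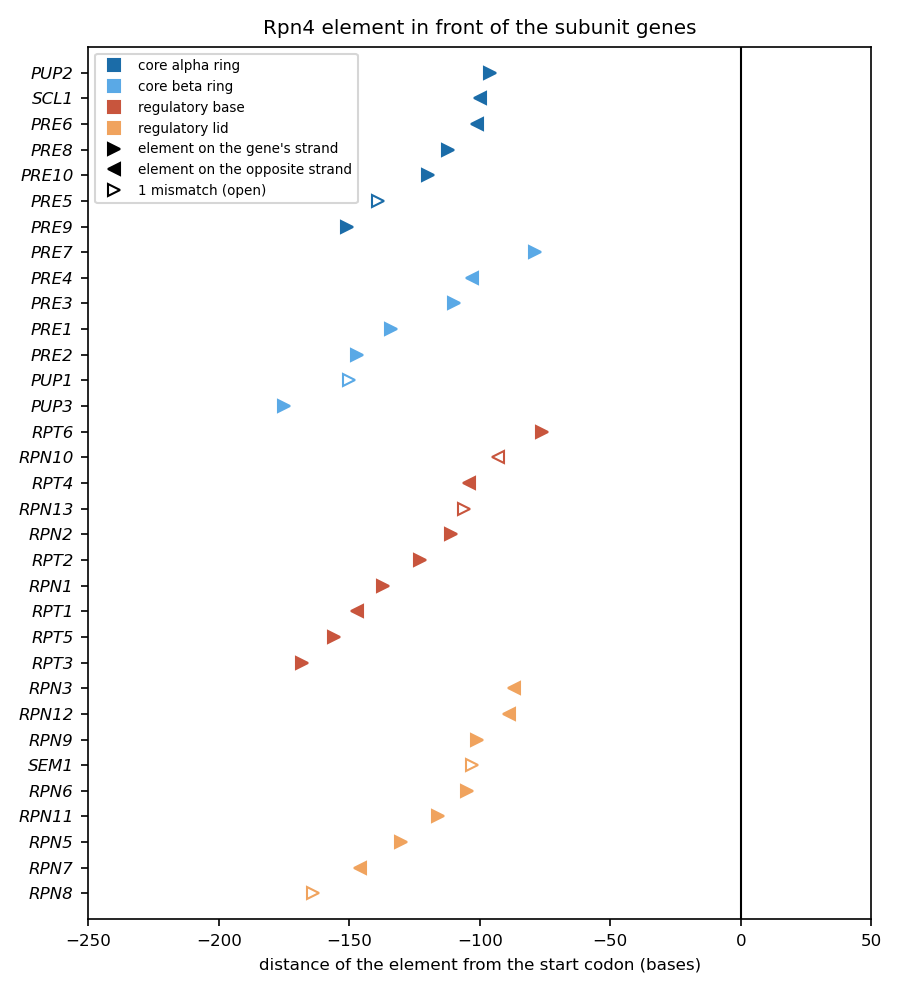
Position of the Rpn4 element in front of each of the 33 subunit genes, as the distance in bases from the start codon (horizontal axis); filled triangles are exact matches, open triangles have 1 mismatch, and the triangle's direction gives the strand. All 33 elements lie between 76 and 175 bases before the start codon.

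RPN4 itself held no match to the element, exact or with 1 mismatch, in either window. Other elements searched there were TCCGCGGA and TCCGTGGA, which the drug-resistance factors Pdr1 and Pdr3 bind, TTACTAA and its reverse complement TTAGTAA for the oxidative stress factor Yap1, and GAANNTTC, 2 units of the heat shock element that Hsf1 binds. In the 500 bases before RPN4, TCCGTGGA occurred at 2 sites, TTACTAA at 1 site and GAANNTTC at 2 sites. All 5 are shown because they stand in front of the only transcription factor gene of the list. In windows of 500 bases TCCGTGGA occurred in 1.05% of all genes, TTACTAA in 11.8% and GAANNTTC in 19.2%. TCCGCGGA was not found in that window of RPN4.
TCCGTGGA, first site (chrIV:417133-417160, minus strand): aataacaagtTCCGTGGAactcaaagaa
TCCGTGGA, second site (chrIV:417090-417117, plus strand): cacgtgattaTCCGTGGAaaggttcgta
TTACTAA site (chrIV:417066-417092, minus strand): gtgatcgctaTTACTAAtagccgttta
GAANNTTC, far site (chrIV:417034-417061, minus strand): gatggttctaGAAAGTTCcgtttcggcg
GAANNTTC, near site (chrIV:416707-416734, minus strand): aagttttctaGAATTTTCaagcaatcat

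Total counts per library were 25987900 to 34032212, and all 34 members passed the filter on low counts, with 2517 to 32240 counts each per library. The test was run over 6220 genes with edgeR's quasi-likelihood test, and a gene was called at a Benjamini-Hochberg adjusted p below 0.05. CPM values are counts divided by a library size that was adjusted with TMM factors, a scaling that sets the bulk of genes to no change. In all, 29.5% of genes were called higher in mCh- cells and 28.2% lower, and the log2 fold changes had a median of 0.02 over all genes. All 6 genes specific to MATa cells were expressed, at 31.1 to 821 CPM. Of 4 genes specific to MATalpha cells, the pheromone genes MF(ALPHA)1 and MF(ALPHA)2 reached at most 0.615 CPM, STE3 4.21 to 6.81 CPM and SAG1 15.2 to 18.2 CPM. SHS1, the engineered gene, had 72.2, 74.5 and 69.8 CPM in the mCh- libraries, against 68.0, 68.6 and 67.3 CPM in the mCh* libraries, and was not called (log2 fold change 0.09 ± 0.08 (SE), edgeR adjusted p = 0.344), although it was called higher with library sizes only (log2 fold change 0.34).

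With TMM scaling the proteasome genes kept close to their level in mCh* cells. The groups of libraries did not overlap for 10 of the 33 subunit genes, against 63.4% of all genes. Of the 33, 3 rose, 7 fell and 23 were not called, against 57.7% of all genes called in either direction; this difference in share was not tested. The 95% interval of the fold change lay within 1.5-fold for all 33, against 47.5% of all genes. It lay within 1.2-fold for 10 of the 33, against 544 of all 6220 genes. Those 10 were 1 of the 14 core genes and 9 of the 19 regulatory genes. The width of an interval also depends on counts, and the shares over all genes were not matched for count level. With library sizes only, edgeR called 14 of the 33 higher, against 48.2% of all genes, and 0 lower, against 15.6%, and of the 7 that fell only PRE6 stayed below 0. RPN4 rose 1.29-fold. With TMM scaling no core particle gene was called higher, and the 3 regulatory particle genes called higher were the ATPase gene RPT2 and the scaffold genes RPN2 and RPN5.

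RPN4 had 136, 126 and 119 CPM in the mCh- libraries, against 102, 103 and 91.1 CPM in the mCh* libraries. All 3 mCh- libraries lay above all 3 mCh* libraries. The log2 fold change was 0.37 ± 0.08 (SE), with a 95% interval of 0.19 to 0.54 and an edgeR adjusted p of 0.00146. The call held when any 1 of the 6 libraries was left out. Against a minimum change of 1.2-fold, a test that 36.1% of all genes passed in either direction, RPN4 did not pass (edgeR adjusted p = 0.0955).

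**Figure D2:**
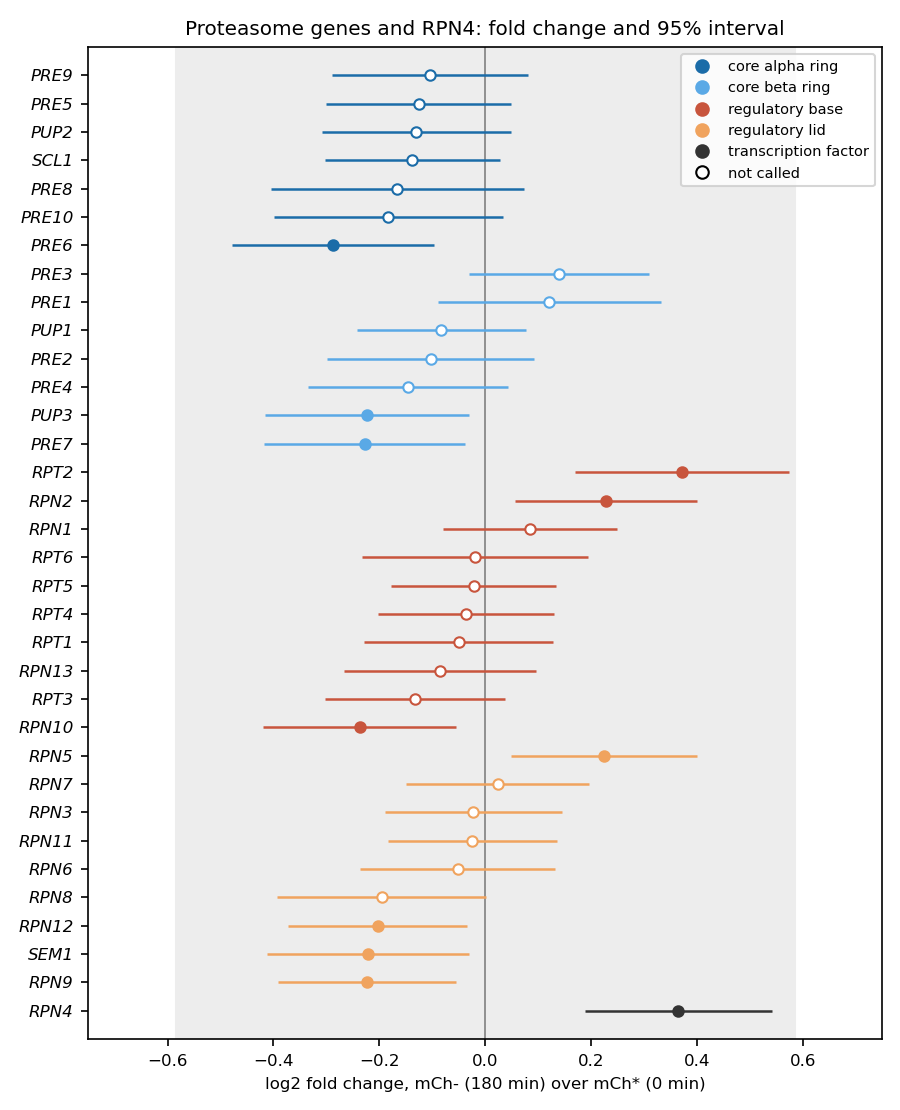
Log2 fold change of mCh- (180 min) over mCh* (0 min) for the 34 genes, with 95% intervals from edgeR; filled points were called, open points were not, and the grey band spans 1.5-fold in either direction. All 33 subunit intervals lie inside the band, and RPT2 and RPN4 have the highest values, 0.37 each.

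The core particle genes had a median log2 fold change of -0.13 and a range of -0.29 to 0.14 with TMM scaling; with library sizes only, which moved the median of all genes to 0.27, the core median was 0.12, again -0.15 relative to all genes. Of the 14, 3 fell (PRE6, PUP3 and PRE7), against 28.2% of all genes, 0 were called higher, against 29.5%, and 11 were not called. At an unadjusted p below 0.05 edgeR also put 0 of the 14 higher, and DESeq2, which called 57.9% of all genes in either direction, and limma-voom each put 0 higher. With library sizes only, 2 core genes (PRE3 and PRE1) were called higher, against 48.2% of all genes, and 0 lower, against 15.6%. The groups of libraries did not overlap for 3 of the 14, all with mCh- below mCh*, against 30.8% of all genes. The mCh- libraries lay above for 0 of the 14, against 32.7% of all genes.

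In the alpha ring, which gates the entrance to the barrel, all 7 estimates lay below 0 with TMM scaling, and all but that of PRE6 lay above 0 with library sizes only. PRE6 (alpha 4) had 224, 260.3 and 257 CPM in the mCh- libraries, against 329, 295 and 280.3 CPM in the mCh* libraries. All 3 mCh- libraries lay below the mCh* libraries, and PRE6 was the one alpha gene called (log2 fold change -0.29 ± 0.09 (SE), edgeR adjusted p = 0.0125). SCL1 (alpha 1) had 252, 266 and 270.2 CPM in the mCh- libraries, against 298, 292 and 277 CPM in the mCh* libraries. Its groups did not overlap either, but it was not called (edgeR adjusted p = 0.141). PRE9 (alpha 3) had the smallest difference of the ring, with 223, 228 and 243 CPM in the mCh- libraries, against 269, 254 and 223 CPM in the mCh* libraries. Its groups overlapped, at a log2 fold change of -0.10 ± 0.09 (SE). PRE9 is known as the only core particle gene that yeast can lose and still grow. The call of PRE6 was lost without mCh- replicate 1 (edgeR adjusted p = 0.0625) or mCh* replicate 1 (0.0743).

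The other alpha genes were PRE8 (alpha 2), PUP2 (alpha 5), PRE5 (alpha 6) and PRE10 (alpha 7), each of which contributes 1 subunit per ring. PRE8 had 179, 191 and 211 CPM in the mCh- libraries, against 243, 235 and 175 CPM in the mCh* libraries. PUP2 had 246, 252 and 281 CPM in the mCh- libraries, against 296, 291 and 266 CPM in the mCh* libraries. PRE5 had 201, 212 and 226 CPM in the mCh- libraries, against 248, 229 and 220.3 CPM in the mCh* libraries. For each of these 3 the mCh* replicate 3 was the lowest library of its group and the groups overlapped. PRE10 had 162, 181 and 189.8 CPM in the mCh- libraries, against 222, 214 and 169 CPM in the mCh* libraries, with the same overlap. Their log2 fold changes were -0.17 for PRE8, -0.13 for PUP2, -0.13 for PRE5 and -0.18 for PRE10, and none was called. Without mCh* replicate 3, PRE8 (edgeR adjusted p = 0.0112) and PRE10 (edgeR adjusted p = 0.0121) were called lower.

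The beta ring carries the 3 kinds of active site. PRE2 (beta 5, the chymotrypsin-like site) had 324, 300.2 and 315 CPM in the mCh- libraries, against 381, 324 and 304 CPM in the mCh* libraries. PRE3 (beta 1, the caspase-like site) had 237, 229 and 245 CPM in the mCh- libraries, against 232, 205 and 209 CPM in the mCh* libraries. PUP1 (beta 2, the trypsin-like site) had 130.5, 139.8 and 136 CPM in the mCh- libraries, against 149, 143 and 138 CPM in the mCh* libraries. The groups overlapped for all 3 catalytic genes, and none was called. The log2 fold change was -0.10 ± 0.09 (SE) for PRE2, with a 95% interval of -0.30 to 0.09. It was 0.14 ± 0.08 (SE) for PRE3, the highest of the ring, with an interval of -0.03 to 0.31. For PUP1 it was -0.08 ± 0.07 (SE), with an interval of -0.24 to 0.08. The bounds of these intervals run from 0.813 for PRE2 to 1.24 for PRE3 as ratios of mCh- to mCh*.

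Of the 4 beta genes without an active site in the mature protein, PUP3 and PRE7 fell. PUP3 (beta 3) had 276, 253 and 266 CPM in the mCh- libraries, against 349, 293 and 285 CPM in the mCh* libraries. All mCh- libraries lay below all mCh* libraries (log2 fold change -0.22 ± 0.09 (SE), edgeR adjusted p = 0.0464). PRE7 (beta 6) had 176, 201 and 186 CPM in the mCh- libraries, against 229, 234 and 195 CPM in the mCh* libraries. It had the lowest fold change of the ring, although mCh- replicate 2 lay above mCh* replicate 3 (log2 fold change -0.23 ± 0.09 (SE), edgeR adjusted p = 0.0396). Both calls were near the threshold. That of PUP3 was lost without mCh- replicate 1 (edgeR adjusted p = 0.0529), mCh- replicate 2 (0.147), mCh- replicate 3 (0.0622), mCh* replicate 1 (0.269) or mCh* replicate 2 (0.0568), and that of PRE7 without mCh- replicate 1 (edgeR adjusted p = 0.127), mCh- replicate 3 (0.0615), mCh* replicate 1 (0.124) or mCh* replicate 2 (0.167). PRE1 (beta 4) had 192, 204 and 216 CPM in the mCh- libraries, against 206, 199.7 and 158 CPM in the mCh* libraries. Its mCh* replicate 3 was far below the other libraries, and it was not called (log2 fold change 0.12 ± 0.10 (SE)). PRE4 (beta 7) had 169, 173 and 194 CPM in the mCh- libraries, against 201, 213 and 178 CPM in the mCh* libraries, with overlapping groups and no call (log2 fold change -0.15 ± 0.09 (SE)).

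The 19 regulatory particle genes had a median log2 fold change of -0.04 and a range of -0.24 to 0.37 with TMM scaling; with library sizes only the median was 0.22, which is -0.05 relative to all genes. Of these genes 3 rose, against 29.5% of all genes, 4 fell, against 28.2%, and 12 were not called. The scaling by library size alone put 12 of the 19 higher, against 48.2% of all genes, and 0 lower, against 15.6%. Without overlap between the groups, 4 lay above in mCh- cells, against 32.7% of all genes, and 3 below, against 30.8%. The base and the lid were alike in their medians, -0.03 over 10 genes and -0.05 over 9 genes.

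In the base, 6 Rpt ATPases form the ring that unfolds the substrate. RPT2, whose tail opens the gate of the core, had 703, 789 and 883 CPM in the mCh- libraries, against 576, 630.4 and 629 CPM in the mCh* libraries. Every mCh- library lay above every mCh* library (log2 fold change 0.37 ± 0.09 (SE), edgeR adjusted p = 0.00343). The call held without any 1 of the 6 libraries, but not against a minimum change of 1.2-fold (edgeR adjusted p = 0.109). Of the other 5 ATPase genes 0 were called by edgeR with TMM scaling, and 0 also at its unadjusted p below 0.05, by DESeq2 or by limma-voom. On library sizes only, however, edgeR called 4 of these 5 higher, with log2 fold changes of 0.20 for RPT1 (edgeR adjusted p = 0.0358), 0.22 for RPT4 (0.0215), 0.23 for RPT5 (0.0111) and 0.24 for RPT6 (0.0416). RPT1 had 199, 197 and 224 CPM in the mCh- libraries, against 225, 217 and 199 CPM in the mCh* libraries. RPT3 had 145, 148 and 157 CPM in the mCh- libraries, against 174, 167 and 152 CPM in the mCh* libraries. RPT4 had 221, 242 and 230.1 CPM in the mCh- libraries, against 247, 239 and 225 CPM in the mCh* libraries. In all 3 the groups overlapped. RPT5, which also docks in the core, had 187, 189 and 188 CPM in the mCh- libraries, against 196, 190.2 and 186 CPM in the mCh* libraries. The 6 values span a narrow range, and its log2 fold change was -0.02 ± 0.07 (SE). RPT6 had 201, 195 and 221 CPM in the mCh- libraries, against 223, 227 and 175 CPM in the mCh* libraries. Its mCh* replicate 3 lay below the rest, and the log2 fold change was -0.02 ± 0.10 (SE). With TMM scaling the log2 fold changes were -0.05 for RPT1, -0.13 for RPT3 and -0.04 for RPT4. The difference between RPT2 and the other ATPase genes was not tested.

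Of the other base genes, RPN2, a scaffold of the base, had 369.7, 397 and 379.6 CPM in the mCh- libraries, against 304, 339.6 and 334 CPM in the mCh* libraries. Its groups did not overlap and it rose (log2 fold change 0.23 ± 0.08 (SE), edgeR adjusted p = 0.0245), a call lost without mCh- replicate 2 (edgeR adjusted p = 0.103) or mCh* replicate 1 (0.117). RPN1, a scaffold and ubiquitin receptor, had 363, 386 and 363 CPM in the mCh- libraries, against 351, 344 and 353 CPM in the mCh* libraries. Its groups did not overlap, yet the difference was small and it was not called (log2 fold change 0.08 ± 0.08 (SE), edgeR adjusted p = 0.367). On library sizes only RPN1 was called higher (log2 fold change 0.34, edgeR adjusted p = 0.00128). RPN10, a ubiquitin receptor, had 132, 137 and 146 CPM in the mCh- libraries, against 172, 172 and 146 CPM in the mCh* libraries. It fell, with mCh* replicate 3 at about the level of mCh- replicate 3 (log2 fold change -0.24 ± 0.09 (SE), edgeR adjusted p = 0.0264). The call of RPN10 was lost without mCh- replicate 1 (edgeR adjusted p = 0.0868), mCh- replicate 2 (0.0774), mCh* replicate 1 (0.0997) or mCh* replicate 2 (0.112). RPN13, another ubiquitin receptor, had 198, 209 and 204 CPM in the mCh- libraries, against 241, 202 and 205 CPM in the mCh* libraries. The groups overlapped and it was not called (log2 fold change -0.09 ± 0.08 (SE)).

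The lid removes ubiquitin from the substrate. RPN11, its deubiquitinase, had 223, 238 and 229.6 CPM in the mCh- libraries, against 236, 232 and 234 CPM in the mCh* libraries. The groups overlapped, and the log2 fold change of -0.02 ± 0.07 (SE) had an interval of -0.18 to 0.14. On library sizes only RPN11 was called higher (log2 fold change 0.23, edgeR adjusted p = 0.0136). RPN8, the inactive partner of Rpn11, had 409, 329 and 336 CPM in the mCh- libraries, against 405, 405 and 419.9 CPM in the mCh* libraries. Its mCh- replicate 1 stood at the level of the mCh* libraries while the other two lay below, and it was not called by edgeR (log2 fold change -0.20 ± 0.09 (SE), edgeR adjusted p = 0.0823), while DESeq2 called it lower (adjusted p = 0.0353). Without mCh- replicate 1 it was called lower (edgeR adjusted p = 0.00976).

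Among the lid genes without an enzymatic site, RPN5 rose and RPN9, RPN12 and SEM1 fell. RPN5 had 332, 299.6 and 341 CPM in the mCh- libraries, against 287, 283 and 263 CPM in the mCh* libraries. The groups did not overlap (log2 fold change 0.22 ± 0.08 (SE), edgeR adjusted p = 0.0295), and the call was lost without mCh- replicate 1 (edgeR adjusted p = 0.0785), mCh- replicate 3 (0.101), mCh* replicate 2 (0.0646) or mCh* replicate 3 (0.0993). RPN9 had 175, 178 and 165 CPM in the mCh- libraries, against 216, 195 and 194 CPM in the mCh* libraries. All mCh- libraries lay below (log2 fold change -0.22 ± 0.08 (SE), edgeR adjusted p = 0.0244), and the call was lost without mCh- replicate 3 (edgeR adjusted p = 0.0607) or mCh* replicate 1 (0.115). RPN12 had 134, 136 and 138 CPM in the mCh- libraries, against 161, 166 and 143 CPM in the mCh* libraries. There too the groups did not overlap (log2 fold change -0.20 ± 0.08 (SE), edgeR adjusted p = 0.0385), and the call was lost without mCh- replicate 1 (edgeR adjusted p = 0.0875), mCh- replicate 2 (0.0881), mCh* replicate 1 (0.108) or mCh* replicate 2 (0.162). SEM1, the small acidic subunit that holds lid subunits together during assembly, had 253, 221 and 257 CPM in the mCh- libraries, against 312, 268 and 272 CPM in the mCh* libraries. It fell with no overlap (log2 fold change -0.22 ± 0.09 (SE), edgeR adjusted p = 0.0458), a call lost without mCh- replicate 1 (edgeR adjusted p = 0.0543), mCh- replicate 2 (0.209), mCh* replicate 1 (0.214) or mCh* replicate 2 (0.0526).

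The remaining lid genes, RPN3, RPN6 and RPN7, are scaffolds of the lid's horseshoe. RPN3 had 199, 198 and 213 CPM in the mCh- libraries, against 209, 216 and 195 CPM in the mCh* libraries. RPN6, which clamps the lid to the alpha ring, had 210.2, 207 and 230.1 CPM in the mCh- libraries, against 235, 234 and 201 CPM in the mCh* libraries. RPN7 had 168, 146 and 168 CPM in the mCh- libraries, against 161, 162 and 152 CPM in the mCh* libraries. With TMM scaling the groups overlapped for all 3 and none was called, with log2 fold changes of -0.02 for RPN3, -0.05 for RPN6 and 0.02 for RPN7. On library sizes only edgeR called all 3 higher, against 48.2% of all genes. The values there were 0.23 for RPN3 (edgeR adjusted p = 0.0135), 0.20 for RPN6 (0.0411) and 0.28 for RPN7 (0.00659).

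**Figure D3:**
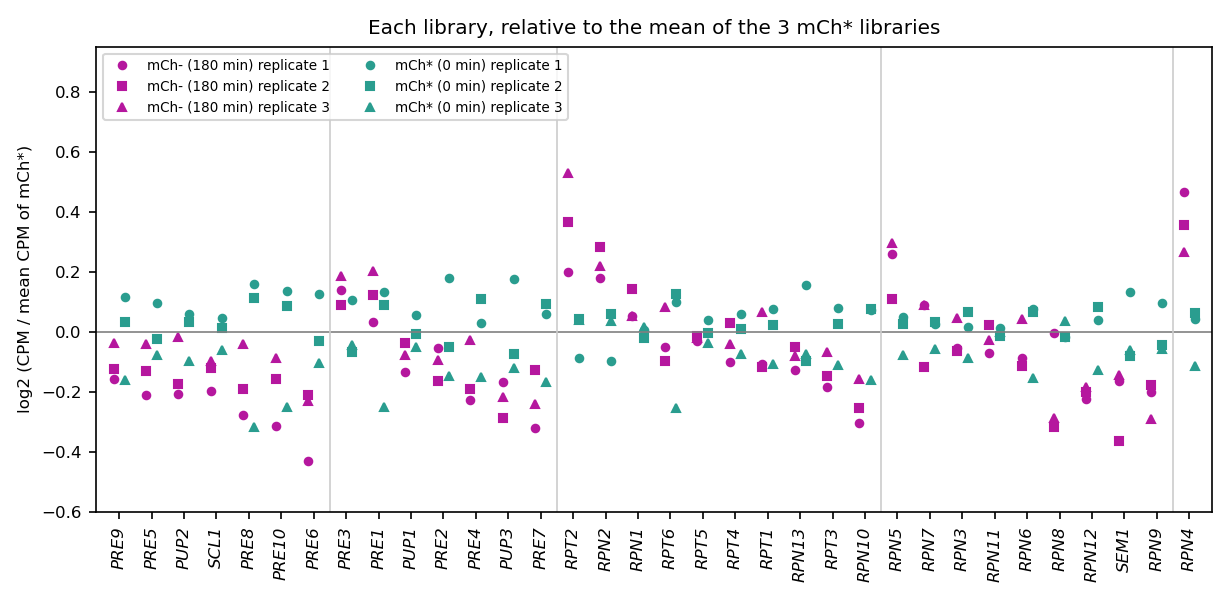
Log2 of the CPM of each library over the mean CPM of the 3 mCh* libraries (vertical axis), for the 34 genes grouped as alpha ring, beta ring, base, lid and RPN4; mCh- libraries are purple and stand left of the green mCh* libraries. The triangles of mCh* replicate 3 are the lowest of their group in 25 of 33 subunits, and RPT2 and RPN4 show the widest gap between groups.

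Single libraries moved with many subunits at once. The mCh* replicate 3 was the lowest of its group for 25 of 33 subunits, 13 of them among the 14 core genes, and mCh* replicate 1 was the highest for 22. Among the mCh- libraries, replicate 1 was the lowest for 20 and replicate 3 the highest for 19. The count of core genes called lower was 0 without mCh- replicate 1 or mCh* replicate 1, 1 without mCh- replicate 3 or mCh* replicate 2, and 5 without mCh* replicate 3, against 3 with all libraries. The count of regulatory genes called lower was 2 without mCh- replicate 1, 1 without mCh- replicate 2 or mCh* replicate 2, and 0 without mCh* replicate 1, against 4 with all libraries.

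The sum over a particle depended on the scale. As a share of all counts, core particle genes took 0.329%, 0.341% and 0.347% of the mCh- libraries, against 0.333%, 0.310% and 0.286% of the mCh* libraries, with overlap. Regulatory particle genes took 0.531%, 0.533% and 0.544% of the mCh- libraries, against 0.449%, 0.443% and 0.436% of the mCh* libraries, with no overlap. On the TMM scale, the core sums were 2991, 3091 and 3235 CPM in mCh- cells, against 3652, 3423 and 3076 CPM in mCh* cells. The regulatory sums were 4822, 4840 and 5073 CPM in mCh- cells, against 4930, 4890 and 4678 CPM in mCh* cells. The regulatory sums thus overlapped between groups on this scale. The TMM factors were 1.073 to 1.102 in mCh- libraries and 0.905 to 0.931 in mCh* libraries, and this difference in factor separates the pair of scales.

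Gene length moved with the fold change. Other genes with a coding length of 600 to 900 bases had median -0.06 in log2 fold change, and those of 2000 to 3000 bases a median of 0.16. Core genes span 597 to 867 bases, and regulatory genes 270 to 2982 bases, with medians of 762 and 1290 bases. After removal of the trend on length and GC content, the core median was -0.06 and the regulatory median -0.02. That fit called 55.7% of all genes, 27.4% higher and 28.3% lower. It called 0 core genes lower by edgeR, against 3 without the correction, and PRE3 (log2 fold change 0.25) and PRE1 (0.25) were called higher. Of the regulatory genes RPT2 remained higher (0.38) and RPN9 lower (-0.30), RPN8 was called lower (-0.23), and the calls of RPN2, RPN5, RPN10, RPN12 and SEM1 were lost. RPN4 stayed called at 0.32. The part of coding length in the other calls was not tested further.

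Transcript levels were set side by side per kilobase of coding length. Core genes were close to one another, with a coefficient of variation over the 14 genes of 23.8% ± 2.51 in mCh- libraries and 24.5% ± 2.78 in mCh* libraries (SD, n = 3 each). Regulatory genes spread more widely, at 82.1% ± 3.53 in mCh- libraries and 87.4% ± 4.68 in mCh* libraries. Without SEM1, the other 18 regulatory genes gave 61.6% ± 2.90 in mCh- libraries and 54.2% ± 2.90 in mCh* libraries. The median core gene stood at 309.8 ± 19.3 CPM per kilobase in mCh- cells and 325 ± 25.1 in mCh* cells, and the median regulatory gene at 166 ± 8.10 in mCh- cells and 176 ± 10.7 in mCh* cells. The ratio of these medians was 1.78, 1.95 and 1.87 in mCh- libraries, against 1.91, 1.79 and 1.83 in mCh* libraries, with overlap. The median coding gene of the genome had a level of 48.5 ± 0.325 CPM per kilobase in mCh- cells and 47.9 ± 0.375 in mCh* cells.

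SEM1, the shortest gene, had the highest level, 903 ± 74.5 CPM per kilobase in mCh- cells and 1052 ± 88.3 CPM per kilobase in mCh* cells (SD, n = 3 each). RPT2 followed in mCh- cells, with 603 ± 68.4 CPM per kilobase in mCh- cells and 466 ± 23.6 CPM per kilobase in mCh* cells. In mCh* cells PUP3 came second, with 429 ± 18.0 CPM per kilobase in mCh- cells and 500.3 ± 56.9 CPM per kilobase in mCh* cells. RPT2, PUP3 and RPN13 were within 1 SD of each other in mCh* cells, so their order there is not resolved. At the low end were RPN2, with 135 ± 4.84 CPM per kilobase in mCh- cells and 115 ± 6.66 CPM per kilobase in mCh* cells, and RPN1, with 124 ± 4.49 CPM per kilobase in mCh- cells and 117 ± 1.499 CPM per kilobase in mCh* cells. In mCh* cells RPN1 and RPN2 lay within 1 SD of each other, whereas in mCh- cells RPT3 was last, with 117 ± 4.93 CPM per kilobase in mCh- cells and 128 ± 8.51 CPM per kilobase in mCh* cells. PUP1, at 172 ± 5.94 CPM per kilobase in mCh- cells and 182 ± 6.77 CPM per kilobase in mCh* cells, was the lowest of the core. Coding lengths leave out untranslated regions, which matters most for short genes such as SEM1.

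**Figure D4:**
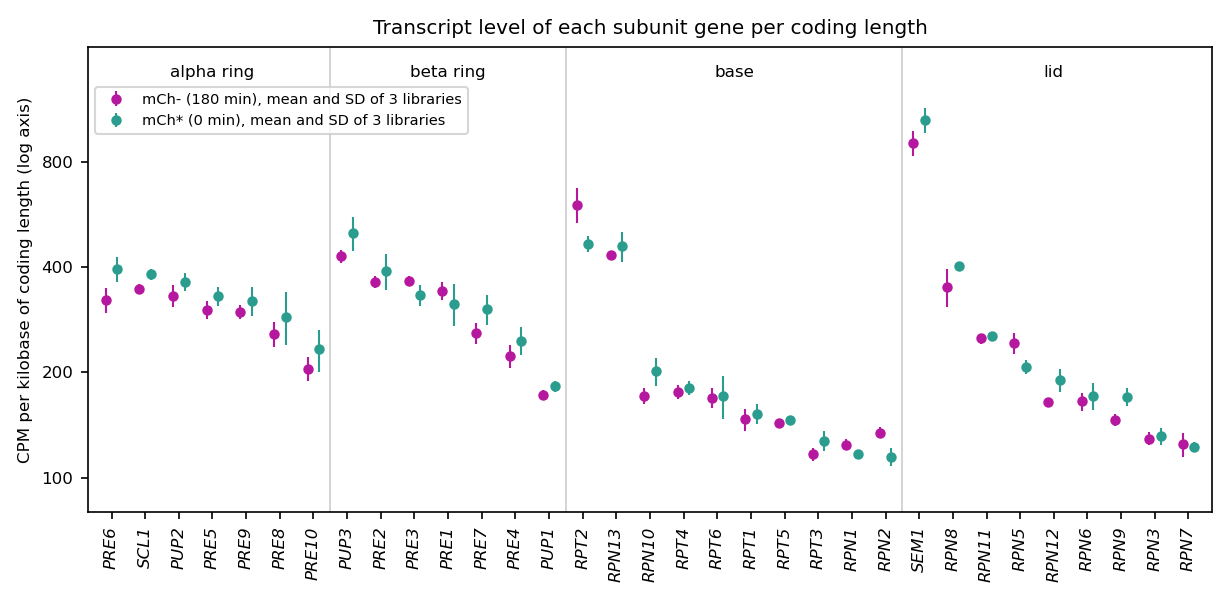
Level of each subunit gene in CPM per kilobase of coding length (log axis), as mean and SD of 3 mCh- libraries (purple, left) and 3 mCh* libraries (green, right), ordered within the alpha ring, beta ring, base and lid. Core genes lie between 172 and 500 CPM per kilobase, whereas the regulatory genes run from about 115 to 1052.

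Subunit genes were then set apart by their element. Of the 27 with an exact match, 3 rose, against 29.5% of all genes, 5 fell, against 28.2%, and 19 were not called (median log2 fold change -0.05). With library sizes only, 14 of the 27 were called higher, against 48.2% of all genes, and 0 lower, against 15.6%. Of the 6 with a mismatch, 2 fell (RPN10 and SEM1), against 28.2% of all genes, with a median of -0.16. None of the 6 was called higher by edgeR, against 29.5% of all genes, and 0 also at its unadjusted p below 0.05, by DESeq2 or by limma-voom. On the scaling by library size alone edgeR called 0 of these 6 in either direction. These medians were not compared by a test. After removal of the trend on length and GC content they stood in the opposite order, at -0.04 for the exact match and -0.02 for the mismatch. Among 44 genes outside the list with the exact element in their window, 19 rose and 11 fell, with a median of 0.17, against 29.5% higher and 28.2% lower of all genes. By library sizes only, 29 of them were called higher, against 48.2% of all genes, and 3 lower, against 15.6%. After removal of the length and GC trend 18 were called higher, against 27.4% of all genes, and 9 lower, against 28.3%.

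Of these 44, 7 share the same element with a subunit gene that is transcribed away from it. At the site shared by NOP14, a gene of ribosome assembly, and RPN5, NOP14 fell (log2 fold change -0.83) and RPN5 rose (0.22). GCD1, a translation initiation factor gene, fell (-0.70) beside RPT4 (-0.04, not called). YPI1, a phosphatase regulator gene, rose (0.59) beside RPN11 (-0.02, not called). At the site of PRE6, which fell (-0.29), the uncharacterized YOL038C-A rose (1.05), and ALG13, a glycosylation gene, rose (0.32) beside RPT6 (-0.02, not called). The call of ALG13 was lost without mCh- replicate 1 (edgeR adjusted p = 0.0778) or mCh* replicate 3 (0.0682). MPO1 beside SCL1 and YTH1 beside RPN7 were not called. MPO1 was called higher with the trend on length and GC content removed (log2 fold change 0.42, edgeR adjusted p = 0.015), with that trend removed and the replicate block (0.44, 0.0182), with library sizes only (0.51, 0.00376) and without mCh* replicate 2 (0.37, 0.047). YTH1 was called higher with library sizes only (0.31, edgeR adjusted p = 0.0127). All 7 neighbours were named after their values were seen.

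The wider pathway was described with 8 lists of 78 genes in all, of which 37 rose and 19 fell, while 22 were not called (median log2 fold change 0.19). Over all genes 29.5% were called higher and 28.2% lower, and the count of each list is to be read against these shares. With the trend on length and GC content removed 27 of the 78 were called higher and 17 lower, and with library sizes only 52 higher and 8 lower. The lists share genes with one another, and a gene is counted once in the total. All of the following fold changes are on the log2 scale, from the same edgeR fit.

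Assembly chaperones build the particle and are not part of it. Of 10 genes 3 rose and 3 fell, with a median of 0.16. ADC17, a stress-induced chaperone of the ATPase ring, had 116, 123 and 93.4 CPM in the mCh- libraries, against 62.7, 62.3 and 63.1 CPM in the mCh* libraries. Its groups did not overlap and it rose (log2 fold change 0.82 ± 0.10 (SE), edgeR adjusted p = 3.23e-06). RPN14, also a chaperone of the ATPases, rose (log2 fold change 0.38 ± 0.09 (SE), edgeR adjusted p = 0.00179), and PBA1, a chaperone of the alpha ring, fell (log2 fold change -0.35 ± 0.09 (SE), edgeR adjusted p = 0.00388).

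Factors that associate with the finished proteasome gave 2 genes higher and 3 lower of 8. HUL5, a ubiquitin chain-extending ligase on the regulatory particle, rose (log2 fold change 0.93 ± 0.09 (SE), edgeR adjusted p = 3.50e-07). CIC1, a core-associated protein that also takes part in ribosome assembly, fell (log2 fold change -0.86 ± 0.08 (SE), edgeR adjusted p = 1.74e-07). STS1, needed to bring proteasomes into the nucleus, fell (log2 fold change -0.64 ± 0.09 (SE), edgeR adjusted p = 1.38e-05). ECM29, which tethers core and regulatory particle, rose (log2 fold change 0.26 ± 0.10 (SE), edgeR adjusted p = 0.0397), a call lost without mCh- replicate 1 (edgeR adjusted p = 0.192), mCh- replicate 2 (0.118), mCh* replicate 1 (0.0725) or mCh* replicate 2 (0.171). ECM29 has a coding length of 5607 bases, and stood at -0.07 after removal of the trend on length and GC content.

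The 4 ubiquitin genes split by what they encode. The polyubiquitin gene UBI4 had 318, 314 and 323 CPM in the mCh- libraries, against 282, 253 and 210.0 CPM in the mCh* libraries. It rose with no overlap (log2 fold change 0.36 ± 0.10 (SE), edgeR adjusted p = 0.00555). The 3 genes that encode ubiquitin fused to a ribosomal protein all fell. RPS31 had 6023, 5082 and 5929 CPM in the mCh- libraries, against 13382, 12778 and 11482 CPM in the mCh* libraries, with every mCh- library below every mCh* library (log2 fold change -1.14 ± 0.10 (SE), edgeR adjusted p = 1.69e-07). RPL40A (-0.96) and RPL40B (-0.87) fell alike, but they encode the same protein and the authors' counting could split reads between them, so each value is uncertain.

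Shuttle factors and the Cdc48 machinery, which carry ubiquitinated proteins to the proteasome, gave 6 genes higher and 1 lower of 10, with a median of 0.22. DOA1, a Cdc48 adaptor needed for ubiquitin recycling, rose (log2 fold change 0.63 ± 0.07 (SE), edgeR adjusted p = 2.91e-06), as did UFD2, a chain-elongating ligase (log2 fold change 0.59 ± 0.08 (SE), edgeR adjusted p = 2.00e-05). RAD23, a shuttle factor, was the exception and fell (log2 fold change -0.34 ± 0.08 (SE), edgeR adjusted p = 0.00208).

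Of 13 ubiquitin-activating and conjugating enzymes, 5 rose and 4 fell, with a median near 0. UBC8, which acts on gluconeogenic enzymes, rose (log2 fold change 1.01 ± 0.09 (SE), edgeR adjusted p = 1.63e-07), and MMS2, a partner of Ubc13 in DNA damage tolerance, rose (log2 fold change 0.50 ± 0.07 (SE), edgeR adjusted p = 3.94e-05). RAD6, the partner of several ligases, fell (log2 fold change -0.44 ± 0.08 (SE), edgeR adjusted p = 0.000343), and UBC11 fell at a very low level (log2 fold change -1.61 ± 0.40 (SE), edgeR adjusted p = 0.003), with 19, 33 and 47 counts in the mCh- libraries, against 75, 102 and 78 counts in the mCh* libraries. CDC34, of the cell cycle ligase SCF, fell (log2 fold change -0.25 ± 0.08 (SE), edgeR adjusted p = 0.0145), a call lost without mCh- replicate 1 (edgeR adjusted p = 0.0727). UBC6, of the endoplasmic reticulum, fell (log2 fold change -0.20 ± 0.08 (SE), edgeR adjusted p = 0.0418), with the call lost without mCh- replicate 1 (edgeR adjusted p = 0.114), mCh- replicate 2 (0.0882), mCh* replicate 1 (0.174) or mCh* replicate 2 (0.081). UBC6 stood above 0 with library sizes only, at 0.06.

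Ubiquitin ligases gave 7 genes higher and 1 lower of 11, with a median of 0.33. With the trend on length and GC content removed, 4 were called higher and 2 lower. UBR1, the ligase of the N-degron pathway, rose (log2 fold change 0.62 ± 0.10 (SE), edgeR adjusted p = 7.28e-05), and HRD1, a ligase of the endoplasmic reticulum, rose (log2 fold change 0.56 ± 0.08 (SE), edgeR adjusted p = 2.00e-05). SAN1, a nuclear quality control ligase, fell (log2 fold change -0.65 ± 0.10 (SE), edgeR adjusted p = 3.79e-05).

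Deubiquitinases outside the lid gave 10 genes higher and 4 lower of 18, with a median of 0.29. With the same trend removed, 6 were called higher and 5 lower. UBP9 (1.195, edgeR adjusted p = 4.85e-08), UBP15 (1.18, 2.72e-07) and UBP2 (0.89, 4.78e-07) rose with the smallest adjusted p-values. UBP10, a nuclear deubiquitinase that acts on histone H2B, fell (-0.62), and UBP1 fell (-0.30). UBP8, the deubiquitinase of the SAGA complex, fell (log2 fold change -0.35 ± 0.12 (SE), edgeR adjusted p = 0.025), a call lost without mCh- replicate 2 (edgeR adjusted p = 0.106), mCh- replicate 3 (0.0711) or mCh* replicate 2 (0.128). OTU2 fell (log2 fold change -0.21 ± 0.08 (SE), edgeR adjusted p = 0.0383), a call lost without mCh- replicate 1 (edgeR adjusted p = 0.0645), mCh- replicate 3 (0.0998), mCh* replicate 1 (0.0915) or mCh* replicate 2 (0.115). OTU2 stood above 0 with library sizes only, at 0.04.

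Genes that act on RPN4 gave 5 higher and 1 lower of 7, with a median of 0.42. Of the transcription factors known to activate RPN4, HSF1 had 144, 143 and 128 CPM in the mCh- libraries, against 98.5, 94.3 and 105 CPM in the mCh* libraries. PDR3 had 60.3, 57.5 and 49.4 CPM in the mCh- libraries, against 35.6, 34.03 and 38.4 CPM in the mCh* libraries. PDR1 had 116, 116 and 113 CPM in the mCh- libraries, against 87.6, 82.9 and 87.6 CPM in the mCh* libraries. All 3 rose with no overlap between groups, at log2 fold changes of 0.48 for HSF1, 0.63 for PDR3 and 0.42 for PDR1. YAP1 had 176, 179 and 185 CPM in the mCh- libraries, against 172, 172 and 166 CPM in the mCh* libraries, and was not called (log2 fold change 0.09 ± 0.07 (SE), edgeR adjusted p = 0.336). UBR2 (0.49) and MUB1 (0.33), which together with Rad6 ubiquitinate the Rpn4 protein, rose, while RAD6 fell (-0.44). After removal of the length and GC trend 3 of these calls were lost, those of PDR1 (0.17, edgeR adjusted p = 0.0625), UBR2 (0.19, 0.186) and MUB1 (0.19, 0.0766), whose coding lengths are 1863 to 5619 bases.

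**Figure D5:**
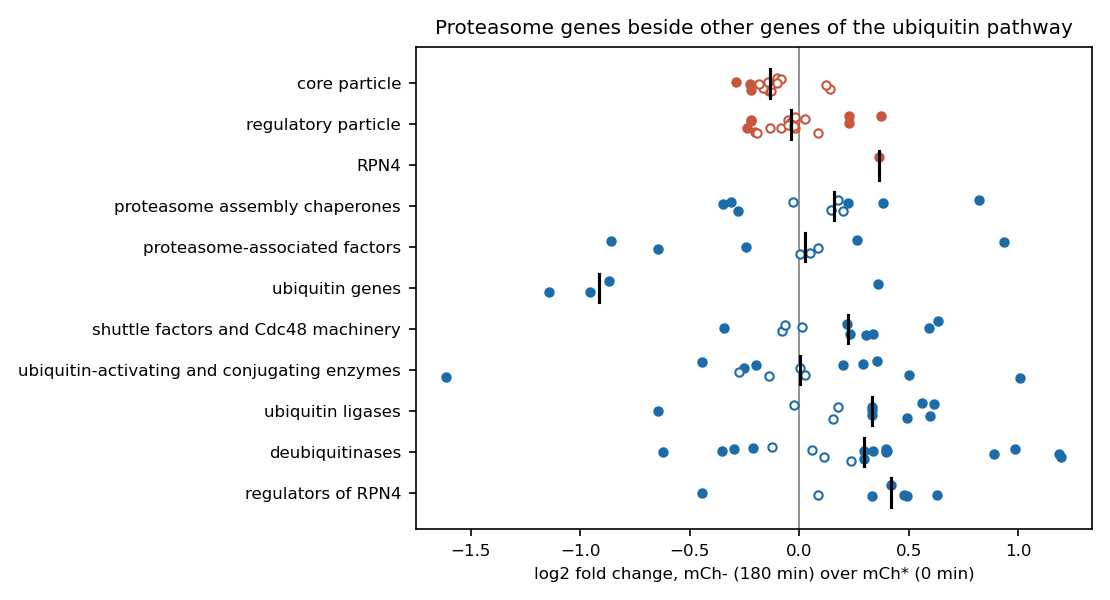
Log2 fold change of mCh- (180 min) over mCh* (0 min) for the core particle, the regulatory particle, RPN4 and 8 lists of the ubiquitin pathway; each point is a gene, filled if called, and the black bar is the median. The proteasome subunits lie between -0.29 and 0.37, while the 78 other genes run from -1.61 to 1.195.

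Several pathway genes carry the exact Rpn4 element in their window. Of these UBA1, the ubiquitin-activating enzyme gene (log2 fold change 0.29 ± 0.08 (SE), edgeR adjusted p = 0.00461), and CDC48, the segregase gene (log2 fold change 0.23 ± 0.09 (SE), edgeR adjusted p = 0.0309), rose, as did UBI4 and ECM29 given above. The call of CDC48 was lost without mCh- replicate 2 (edgeR adjusted p = 0.147), mCh* replicate 2 (0.0664) or mCh* replicate 3 (0.114), and the calls of UBA1 and CDC48 were both lost after removal of the trend on length and GC content (edgeR adjusted p = 0.145 for UBA1 and 0.171 for CDC48). YAP1, which holds the element too, was not called. These genes are among the 44 with the element given above and add no separate evidence. Of the 44, 19 rose, against 29.5% of all genes, and 11 fell, against 28.2%. Naming UBA1 and CDC48 here followed from their element, after their values were seen.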

How the data were processed

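PolyA-selected, strand-specific RNA libraries were sequenced from 3 mCh- (180 min) and 3 mCh* (0 min) samples, grouped by title. The authors deposited whole-number counts per gene, not normalized. The submitters' processing notes name HTSeq 0.6.1p1, STAR 2.5.3a, cutadapt 1.10 and bcl2fastq 2.20.0.422 and the builds sacCer3 and R64, without their settings. How strand and multiply mapped reads were handled is not given in the sources used here. Counts of overlapping genes and near-identical copies are therefore uncertain. Names, coding lengths and sequences came from RefSeq R64: 6047 of 7127 identifiers matched by locus tag, 41 by symbol and 1039 not at all. No member overlaps another matched identifier. The 1039 unmatched identifiers have no position here, so an overlap of members with them could not be checked.

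Counts, 25987900 to 34032212 per library, were tested in R 4.3.3 with edgeR 4.0.16 (TMM factors, filterByExpr by group, two-sided quasi-likelihood F test, Benjamini-Hochberg adjustment over 6220 genes; 907 were removed). CPM use the TMM-scaled library size. Standard errors and intervals come from that fit. No pair of libraries of 1 group agreed within counting noise (chi-square per degree of freedom at least 25.5), and p-values measure the spread between the 3 independent experiments. The procedure was tested on simulated counts of 6220 genes, with 50 genes changed at each fold. It recovered 24% of changes of 1.2-fold, 80% of 1.5-fold and 90% of 2-fold, and 7 of 150 calls were false. Most changes of 1.2-fold were thus missed in the simulation. Far fewer genes were changed there than the 57.7% called in the data, where the adjusted threshold therefore admits larger p-values. The changed genes were also drawn from all count levels. The recovered and false shares thus do not carry over to the calls of the members.

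Members and gene lists were chosen with earlier results of these data known, so no list was tested as a set. Named genes are all 34 members, from each related list up to 3 called genes with the smallest adjusted p and those called against the majority, and SHS1; other names were chosen after their values were seen. ADC17 and TMA17 name the same gene, which was counted once. Alternatives were DESeq2 1.42.0, limma-voom (limma 3.58.1), other scalings and filters, a minimum fold of 1.2, a stricter threshold, nuclear protein-coding genes alone, the replicate number as a block, a loess trend on length and GC content (span 0.3), and leaving out each library. The 500-base motif window was added after seeing the data. Figures were drawn with matplotlib 3.10.9.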

Additional observations from a re-analysis of the deposited data

How the results depend on the processing

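Of the counts and values that answer a comparison, 136 kept their direction and stayed within 1.5 times under the alternatives, 38 moved further, 1 lost its call and 1 changed sign. Of the values of single genes, 1288 kept their call and direction. With the sign kept, 142 lost the call and 19 gained one. The other 52 changed sign, and these include values that also gained or lost a call. With library sizes only, 2996 genes were called higher and 969 lower, core genes gave 2 higher and 0 lower, regulatory genes 12 higher and 0 lower, and related genes 8 lower. Against a 1.2-fold change, 1117 genes were higher and 1127 lower, core genes gave 0 lower, regulatory genes 0 higher and 0 lower, related genes 18 higher and 9 lower, and RPN4 (0.37) was not called. At an adjusted p below 0.01, core genes gave 0 lower, regulatory genes 1 higher and 0 lower, and related genes 12 lower. With the trend on length and GC content removed, core genes gave 2 higher and 0 lower and regulatory genes 1 higher and 2 lower.

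Deviations of same-numbered libraries correlated at 0.0296, -0.00513 and -0.237. Each deviation is taken from a mean of 3 libraries, so these values cannot decide whether libraries of the same number came from the same experiment. With the replicate block, 1 core gene and 1 regulatory gene were called lower. The calls of PUP3 (edgeR adjusted p = 0.0557), PRE7 (0.0539), RPN5 (0.0546), RPN10 (0.0562), RPN12 (0.0718) and SEM1 (0.0509) were lost with it. With the replicate block and the trend removed together, core genes gave 1 higher and 0 lower, and regulatory genes 1 higher and 1 lower. Leaving out each library gave 0 to 5 core genes lower and 0 to 4 regulatory genes lower. Summed on the CPM scale, the log2 ratio was -0.12 for the core and 0.0234 for the regulatory particle.

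Signs of single log2 fold changes turned as follows, and the cause was not tested. With library sizes only: SCL1 0.12, PRE8 0.0889, PRE9 0.15, PUP2 0.12, PRE5 0.13, PRE10 0.071, PUP1 0.17, PUP3 0.0316, PRE2 0.15, PRE7 0.0276, PRE4 0.11, RPT1 0.20, RPT3 0.12, RPT4 0.22, RPT5 0.23, RPT6 0.24, RPN10 0.0167, RPN13 0.17, RPN3 0.23, RPN6 0.20, RPN8 0.0581, RPN9 0.0313, RPN11 0.23, RPN12 0.0511, SEM1 0.0315, UBC6 0.0575 and OTU2 0.0419. With the trend removed: RPT5 0.00229, RPT6 0.015, RPN1 -0.10, RPN13 0.11, RPN7 -0.0219, RPN11 0.0361, SEM1 0.00161, ECM29 -0.0694 and YAP1 -0.00934. With block and trend: RPT5 0.00247, RPT6 0.0221, RPN1 -0.10, RPN13 0.11, RPN7 -0.0253, RPN11 0.0351, ECM29 -0.0724 and YAP1 -0.00978. Leaving out single libraries, RPT6 ranged over -0.13 to 0.0482, RPN3 over -0.068 to 0.0109, YTH1 over -0.00384 to 0.13 and RPN7 over -0.0196 to 0.0857. Members had at least 2517 counts per library, and precision rests on 3 libraries per group.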
